A study of Mus musculus with 6 samples.

Results

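The 55 genes described here encode the machinery of G2 and mitosis, the cell cycle phases in which a cell that has copied its DNA commits to division, aligns its chromosomes, separates them and splits. They were taken by symbol from a list of mitotic regulators, and all 55 were found among the 34745 genes measured. Their levels were compared in wild-type mouse bone marrow-derived macrophages, primary cells grown from marrow with the growth factor M-CSF at 20 ng/ml. All 6 samples were stimulated for 6 h with 100 ng/ml of R848, an agonist of the endosomal Toll-like receptor TLR7. Before that, 3 had received the solvent DMSO and 3 a KAT8 inhibitor, a compound against the histone H4 acetyltransferase also called MOF. The sources used here give no name, dose or duration for the inhibitor, and no number, sex or age for the mice. They do not say whether replicates were separate mice or cultures. No library of unstimulated cells was analysed, so each difference is one between stimulated samples.

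As background, entry into mitosis is driven by the kinase CDK1 bound to cyclins A and B, helped by Polo-like and Aurora kinases. Condensins and topoisomerase II then compact the chromosomes, kinesin motors build the spindle, and kinetochores attach the chromosomes to it. The spindle checkpoint holds back the anaphase-promoting complex until all chromosomes are attached, after which cytokinesis divides the cell. Transcripts of these genes rise together late in the cycle and are low in resting cells. M-CSF drives marrow precursors to proliferate before they mature, so cultured macrophages can still hold dividing cells. In bulk RNA, fewer cells in G2 and mitosis and less mRNA per such cell cannot be told apart.

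With the inhibitor, 51 of the 55 genes fell, none rose, and 4 did not pass the test. The falls were of 1.40-fold to 2.79-fold, and the median log2 fold change of all 55 was −1.02, against 0.01 for the 13815 genes tested. Of those tested genes 26.5% fell and 24.9% rose, so lower levels were common outside mitosis as well. Falls of at least 2-fold were seen for 31 members, and for 6.86% of all tested genes. The 4 that did not pass were Pttg1, Cdc25b, Bub3 and Spc25. No member rose at an unadjusted p under 0.05 with edgeR's quasi-likelihood test (52 were lower at that p), and 0 rose with DESeq2.

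Promoters of G2 and mitosis genes are known for a pair of short elements, the NF-Y box with the letters CCAAT and the cell cycle genes homology region, or CHR. The core of the CHR reads TTTGAA, and a variant of it reads TTCGAA. They are given here as a description of sequence, and their part in the falls was not tested. RefSeq (build GRCm38.p6, the coordinates of mm10) gave 50 windows of 300 bases for 47 members, each from 250 bases before the annotated transcript start to 50 after it. Those without a window were Aurkb, Ccna2, Cdc25c, Foxm1, Incenp, Kif20a, Smc4 and Tpx2. Below are the 250 bases before the start for the 4 members with the largest falls and for Spc25 and Cdc25b, which did not pass. Letters of a match on either strand are in capitals, and the start follows the last base.
Ube2c (chr2:164769679-164769928, plus strand): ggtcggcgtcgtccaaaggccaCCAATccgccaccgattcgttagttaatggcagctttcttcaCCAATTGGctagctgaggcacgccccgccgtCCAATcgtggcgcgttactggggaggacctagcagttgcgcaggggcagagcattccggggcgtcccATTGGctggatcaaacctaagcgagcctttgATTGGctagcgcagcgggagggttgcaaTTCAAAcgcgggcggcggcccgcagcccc
Mki67 (chr7:135716380-135716629, minus strand): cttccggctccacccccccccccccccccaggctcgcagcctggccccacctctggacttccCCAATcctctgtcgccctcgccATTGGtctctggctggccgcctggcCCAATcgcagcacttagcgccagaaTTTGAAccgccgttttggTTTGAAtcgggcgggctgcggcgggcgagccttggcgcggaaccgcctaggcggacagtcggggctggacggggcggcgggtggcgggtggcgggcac
Plk1 (chr7:122159185-122159434, plus strand): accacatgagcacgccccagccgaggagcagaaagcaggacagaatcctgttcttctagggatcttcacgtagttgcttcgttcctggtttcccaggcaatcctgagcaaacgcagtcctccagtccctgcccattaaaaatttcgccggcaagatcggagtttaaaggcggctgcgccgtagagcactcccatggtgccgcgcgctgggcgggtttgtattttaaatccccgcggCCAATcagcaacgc
Cdc20 (chr4:118437344-118437593, minus strand): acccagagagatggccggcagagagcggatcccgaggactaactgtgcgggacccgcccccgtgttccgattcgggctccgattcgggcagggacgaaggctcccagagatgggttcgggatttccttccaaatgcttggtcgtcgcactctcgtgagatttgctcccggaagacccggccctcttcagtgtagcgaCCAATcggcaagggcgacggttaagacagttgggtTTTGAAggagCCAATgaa
Spc25 (chr2:69206214-69206463, minus strand): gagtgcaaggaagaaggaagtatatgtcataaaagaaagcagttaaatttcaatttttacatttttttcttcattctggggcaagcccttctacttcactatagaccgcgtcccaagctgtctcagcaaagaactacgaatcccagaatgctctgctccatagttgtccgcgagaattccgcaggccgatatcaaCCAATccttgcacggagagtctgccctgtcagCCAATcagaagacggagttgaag
Cdc25b (chr2:131186698-131186947, plus strand): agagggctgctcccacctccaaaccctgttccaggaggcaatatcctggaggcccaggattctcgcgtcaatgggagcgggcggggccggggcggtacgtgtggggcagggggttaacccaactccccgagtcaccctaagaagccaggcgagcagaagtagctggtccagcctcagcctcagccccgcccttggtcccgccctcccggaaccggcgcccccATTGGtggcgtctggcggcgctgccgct
Ube2c held CCAAT at 5 places, where overlapping matches count as 1 place, and a CHR core at position -29, counting -1 as the base before the start. In Mki67 the matches lay further upstream, with CHR cores at positions -116 and -98. Cdc20 had its core at -18, between CCAAT matches at -53 and -8. The cores of Plk1 (31), Spc25 (25) and Cdc25b (8) lay after the start, beyond the bases shown.

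Both strands were searched, so that ATTGG counted as the box on the other strand and TTCAAA as the core. Of the windows, 37 of 50 (74%) held CCAAT, against 37.4% of the 32851 windows of the table and 37.4% of the 13275 windows of tested genes. A CHR core was present in 39 windows (78%), against 19.2% and 13.9%. Both elements occurred in 34 windows (68%), against 7.52% and 5.69%. The common core was found in 36 windows and the variant in 5, and matches of different motifs overlapped only in Cdca8. Of 83 CCAAT matches 63 lay within 150 bases before the start (median position -68), and of 54 CHR core matches 22 did (median -10). Here overlapping matches, and those in the overlapping windows of Bub3, Ect2 and Prc1, were each counted. Positions in windows of other genes were not compared. The 4 members that did not pass had windows too: those of Spc25, Bub3 and Cdc25b held both elements, and that of Pttg1 held neither. The median log2 fold change was −1.06 for the 36 members with a CHR core and −0.99 for the 11 without. The annotated start was within 100 bases of the GENCODE gene start in 41 of 50 windows. That of Pttg1 lay 270 bases inside the gene, and those of Bub3, Cdca8, Cenpa, Kif2c, Kif4, Mad2l1 and Ncapd2 were also further off. A match is a description of letters and no measure of binding.

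**Figure D1:**
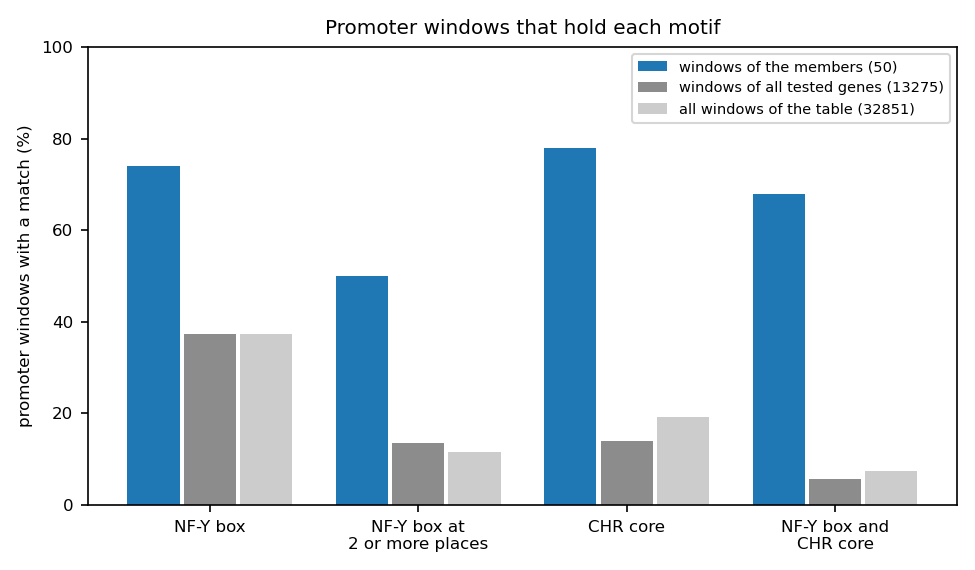
Share of 300-base promoter windows (y axis, percent) that hold the NF-Y box, that box at 2 or more places, the CHR core, or both elements. Blue bars are the 50 windows of the members, dark grey the 13275 windows of tested genes and light grey all 32851 windows. The members' bars are the highest in each set, at 78% for the CHR core against 13.9% and 19.2%.

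Levels are given as CPM, read counts scaled to library size with TMM factors. Summed over the 55 genes, the level with DMSO was 1495, 1384 and 1448 CPM. With the inhibitor it was 753, 669 and 744 CPM. The groups stood well apart, and the mean sum was 2.00-fold lower with the inhibitor. For 51 genes the 3 inhibitor values all lay below the 3 DMSO values, while 30.3% of all tested genes showed that order. Among these 51 the lowest inhibitor value was in replicate 2 for 39 genes, in replicate 3 for 7 and in replicate 1 for 5. Over all tested genes with that order, replicate 2 was lowest for 41.7%. Without inhibitor replicate 2 the same 51 genes were called lower. Single members had between 36 and 5155 counts in a library, from totals of 18441352 to 25089320.

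**Figure D2:**
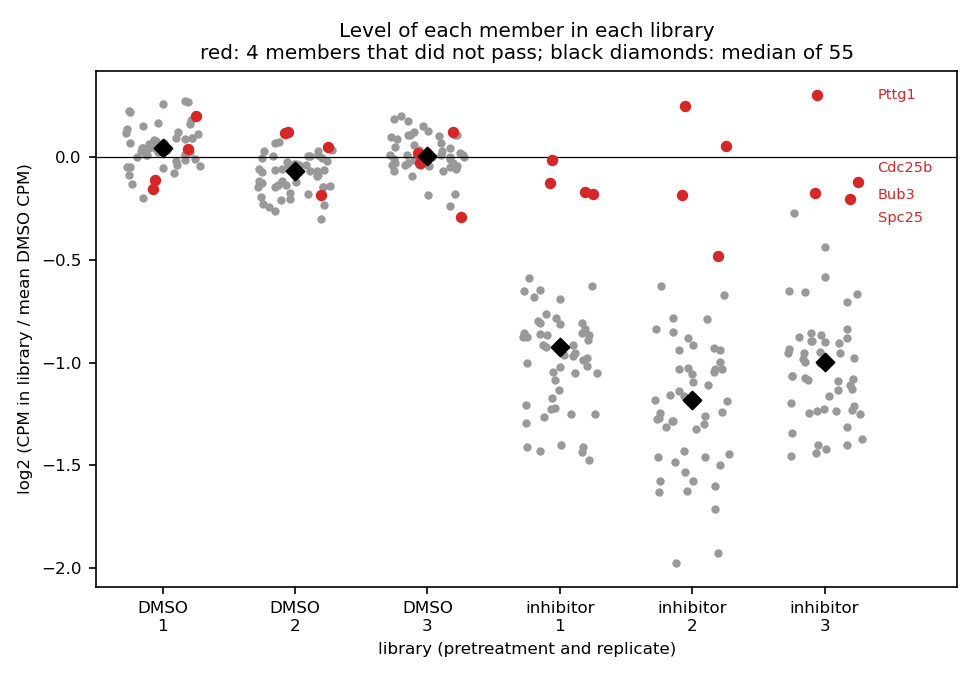
Level of each of the 55 genes in each library, as log2 of its CPM over its mean CPM with DMSO (y axis), with libraries on the x axis. Grey points are the 51 genes that fell, red points Pttg1, Cdc25b, Bub3 and Spc25, and black diamonds the median of all 55. The diamonds sit at 0.05, −0.07 and 0.01 with DMSO and at −0.92, −1.18 and −0.999 with the inhibitor.

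Markers of other cells moved as well. Of 10 stromal genes 8 fell and none was at 0, where 26.5% of all tested genes fell. Pdgfra (log2 fold change 0.08, mean 418 CPM with DMSO and 442 CPM with the inhibitor) and Lum (−0.36) did not pass. The 10 genes summed to 4817 to 5641 CPM with DMSO and 2064 to 2214 CPM with the inhibitor. Collagen and smooth muscle transcripts were thus plentiful in samples labelled as macrophages. Of 7 myeloid progenitor genes Cd34 and Kit fell, and Elane and Ctsg were at 0 in all libraries. Too low to be tested were Flt3 (0 to 1 counts with DMSO, 3 to 10 with the inhibitor), Prtn3 (0 to 1, 0 to 8) and Mpo (0 to 1, 0 to 4). The list summed to 49.4 to 52.2 CPM with DMSO and 12.9 to 15.4 CPM with the inhibitor. Cd34 made up 48.0 to 50.3 CPM of it with DMSO. Of 7 neutrophil genes 2 fell (the list summed to 6.41 to 7.25 against 1.99 to 3.47 CPM) and Ly6g, Ngp and S100a9 were at 0. Ltf (0 to 1 counts with DMSO, 2 to 5 with the inhibitor) and Cxcr2 (0 to 3, 2 to 14) were too low to be tested. Erythroid, lymphoid, dendritic, and megakaryocyte and mast cell lists summed to at most 20.4 CPM in any library. Of the macrophage genes themselves 7 of 10 fell and Csf1r, Spi1 and Cd68 did not pass, with sums of 12168 to 13906 and 7894 to 7987 CPM. The part of other cells in the fall of the mitotic genes was not tested.

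Among the kinases, cyclins and phosphatases of mitotic entry, 9 of 10 fell (median −1.12). Plk1 (chr7:122159439-122169873 in mm10, plus strand), the Polo-like kinase that acts from entry to cytokinesis, measured 26.0, 24.2 and 24.1 CPM with DMSO and 9.40, 8.31 and 9.26 CPM with the inhibitor. The groups were far apart, and the log2 fold change was −1.46 (SE 0.081, adjusted p = 3.54e-06). Cdk1 (chr10:69335146-69352938, minus strand), the kinase that triggers mitosis, went from 22.5, 18.9 and 20.9 CPM to 8.71, 9.11 and 8.72 CPM. The groups were far apart and the inhibitor values close together (log2 fold change −1.23, SE 0.089). Ccnb1 (chr13:100778650-100786570, minus strand), cyclin B1, measured 9.67, 11.6 and 12.0 CPM with DMSO and 4.12, 4.55 and 5.27 CPM with the inhibitor, again without overlap (−1.26, SE 0.13). Its processed pseudogene Gm12856 is 98.1% identical over 1294 bases and is not among the genes measured. How reads that match both were handled is unknown. In all, 23 members share a stretch of at least 200 bases, at 90% identity or more, with a transcript of another gene.

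The other cyclins and kinases of this group fell too. Ccna2, cyclin A2, fell by 1.19 on the log2 scale and Aurka, the spindle pole Aurora kinase, by 1.18. Cdc25c, a phosphatase that activates CDK1, fell by 1.07, cyclin B2 (Ccnb2) by 1.02, the centrosome kinase Nek2 by 1.01 and the kinase Melk by 0.99. Cdc25b, another phosphatase that activates CDK1, did not pass. Its values were 10.1, 9.06 and 7.15 CPM with DMSO and 7.74, 9.11 and 8.05 CPM with the inhibitor. These overlapped fully (log2 fold change −0.07, SE 0.14, adjusted p = 0.693). Its sign turned with library totals alone (0.0357) and without DMSO replicate 1 (0.0282). Within each library, Cdc25b had 2.31 to 2.59 counts per Cdc25c count with DMSO and 4.47 to 5.39 with the inhibitor. This ratio, like those given further on, needs no scaling, and its gene pair was picked after the values were seen. Such ratios restate the fold changes of their genes and are no separate evidence.

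Both transcription factors that drive mitotic genes fell. Foxm1 (chr6:128362967-128376146, plus strand) had the largest standard error of all members, at 24.6, 16.6 and 20.0 CPM with DMSO and 11.4, 5.35 and 9.46 CPM with the inhibitor. The groups did not overlap, and the log2 fold change was −1.22 (SE 0.25, adjusted p = 0.00434). Mybl2, or B-Myb, which works with the MuvB complex, was tighter: 8.07, 8.20 and 7.76 CPM against 4.04, 3.92 and 4.48 CPM (−0.95, SE 0.11).

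All 7 genes of condensin and chromosome structure fell (median −0.91), over a wide range from −1.47 to −0.49. Mki67 (chr7:135689784-135716361, minus strand) encodes the proliferation marker that coats mitotic chromosomes and was the most abundant member, at 241, 213 and 225 CPM with DMSO and 85.2, 74.7 and 85.5 CPM with the inhibitor. Its log2 fold change was −1.47 (SE 0.069, adjusted p = 1.72e-06). It made up 15.4% to 16.1% of the summed counts of the 55 genes with DMSO and 11.2% to 11.5% with the inhibitor, a smaller share in every inhibitor library. Top2a (chr11:98992943-99024189, minus strand), the topoisomerase that untangles sister DNA, went from 100, 87.7 and 87.8 CPM to 47.6, 42.7 and 47.5 CPM, a 2-fold fall without overlap (log2 fold change −1.002, SE 0.072).

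The 5 condensin subunits among the 55 had log2 fold changes from −0.97 to −0.49. The ATPase pair Smc2 and Smc4, which both condensin I and condensin II contain, each fell by 0.71 on the log2 scale. Within the libraries, Smc4 had 1.48 to 1.85 counts per Smc2 count with DMSO and 1.70 to 1.72 with the inhibitor. Of the subunits of condensin I, Ncapg fell by 0.97 and Ncapd2 by 0.91. Ncaph, its kleisin, measured 11.1, 12.4 and 13.0 CPM with DMSO and 8.09, 7.87 and 10.1 CPM with the inhibitor. This was the smallest fall that passed (−0.49, SE 0.12, adjusted p = 0.00992), with 1 inhibitor library close to the DMSO values. The subunits of condensin II were mixed, as Ncapg2 fell by 0.92 while Ncapd3 (−0.10) and Ncaph2 (0.03) did not pass.

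All 8 kinesin motors of the spindle fell, within a narrow range of −1.31 to −0.88 (median −1.12). Kif23, a subunit of the centralspindlin complex of cytokinesis, went from 16.7, 12.5 and 13.7 CPM to 5.82, 5.19 and 6.23 CPM (SE 0.13, adjusted p = 9.69e-05). Kif2c, which takes apart misattached microtubules, had the same log2 fold change of −1.31. Kif20a, a motor of the central spindle and the most abundant per length, measured 33.5, 35.4 and 34.6 CPM with DMSO and 16.7, 12.7 and 13.3 CPM with the inhibitor (−1.28, SE 0.10). Its exons overlap Cdc23 on the opposite strand, a gene whose log2 fold change was −0.24. Kif4 and Kif22, which bind chromosome arms, fell by 1.14 and 1.09, and exons of Kif4 overlap Pdzd11 (0.13, not passed). The antiparallel sliding motor Kif11 fell by 1.02, and Kif15, which can stand in for it, by 1.01. Kif20b had the smallest fall, from 17.5, 13.6 and 12.3 CPM to 7.97, 7.59 and 7.84 CPM (−0.88, SE 0.14).

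The 5 spindle assembly and microtubule-associated proteins all fell (median −0.996). Nusap1, a microtubule bundler, measured 13.9, 11.9 and 13.4 CPM with DMSO and 5.59, 4.83 and 4.81 CPM with the inhibitor (−1.36, SE 0.11). Tpx2, which activates Aurora A, went from 44.8, 40.3 and 43.7 CPM to 21.1, 20.6 and 23.0 CPM (−0.99, SE 0.071). Aspm, a spindle pole protein, fell by 1.13 and Hmmr, which binds microtubules, by 0.996. Ckap2l had the smallest change of the 5, from 19.9, 18.2 and 18.8 CPM to 10.4, 8.63 and 10.2 CPM (−0.96, SE 0.094).

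**Figure D3:**
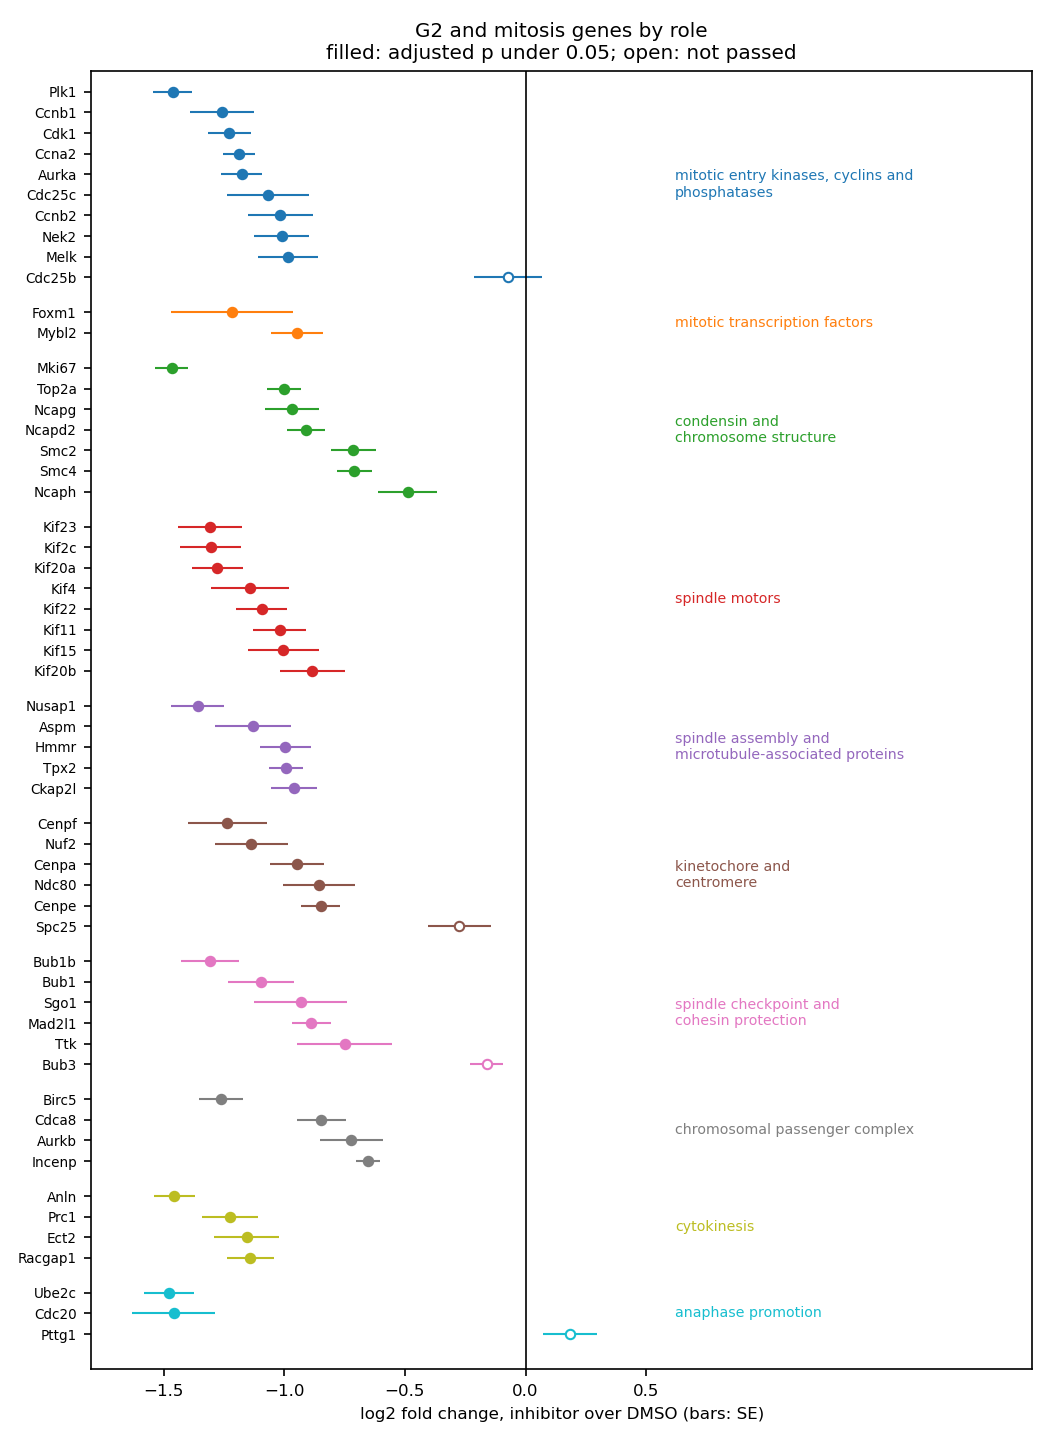
Log2 fold change of each gene, inhibitor over DMSO (x axis, bars are the SE, n = 3 libraries a group), with genes grouped by role on the y axis. Filled points passed at an adjusted p under 0.05 and open points did not. Filled points lie between −1.48 and −0.49, and the 4 open points between −0.28 and 0.18.

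Of the 6 kinetochore and centromere genes 5 fell (median −0.90). Cenpf, an outer kinetochore protein, went from 25.2, 19.9 and 22.2 CPM to 9.63, 7.27 and 11.6 CPM (−1.24, SE 0.16, adjusted p = 0.000409). Cenpe, the kinesin that carries chromosomes along microtubules, went from 28.3, 25.3 and 28.6 CPM to 16.1, 14.3 and 15.1 CPM (−0.85, SE 0.081). Cenpa, the histone H3 variant of centromeres, fell by 0.95.

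The Ndc80 complex, which grips spindle microtubules, has 4 subunits. Nuf2 fell by 1.14, Ndc80 by 0.86 and Spc24, which is not among the 55, by 0.80. Spc25 measured 8.01, 6.86 and 8.50 CPM with DMSO and 6.93, 5.59 and 6.77 CPM with the inhibitor. DMSO replicate 2 lay just below the highest inhibitor value, and the change did not pass (−0.28, SE 0.13, adjusted p = 0.111). Per count of Nuf2 there were 0.711, 0.674 and 0.707 counts of Spc25 with DMSO and 1.17, 1.40 and 1.28 with the inhibitor, without overlap between groups. Counts of Ndc80 per Nuf2 count were only just apart, at 0.530 to 0.609 with DMSO and 0.623, 0.94 and 0.614 with the inhibitor. Only inhibitor replicate 2 lay clearly higher. Those of Spc24 overlapped (0.406 to 0.517 and 0.5 to 0.73).

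Of 6 genes of the spindle checkpoint and of cohesin protection 5 fell (median −0.91). Bub1b, or BUBR1, a core inhibitor of the anaphase-promoting complex, went from 30.9, 28.3 and 28.5 CPM to 14.2, 10.1 and 11.1 CPM (−1.31, SE 0.12, adjusted p = 5.68e-05). The checkpoint kinase Bub1 fell by 1.10, Mad2l1 (MAD2) by 0.89 and the kinase Ttk (MPS1) by 0.75, while Sgo1, the shugoshin that protects centromeric cohesin, fell by 0.93. Bub3 binds both BUB1 and BUBR1 and was more abundant than they were, at 12.1 RPKM (CPM per kilobase of exon) with DMSO against 6.84 RPKM for Bub1b and 2.66 RPKM for Bub1. It measured 76.0, 91.9 and 85.8 CPM with DMSO and 77.7, 74.6 and 74.9 CPM with the inhibitor. DMSO replicate 1 lay among the inhibitor values, and the change did not pass (−0.16, SE 0.069, adjusted p = 0.083). Without that library it passed (−0.24, adjusted p = 0.00592, range over the alternatives 0.00592 to 0.51). Bub3 had 2.46 to 3.24 counts per Bub1b count with DMSO and 5.48 to 7.38 with the inhibitor.

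All 4 subunits of the chromosomal passenger complex, which corrects attachments and later guides cytokinesis, fell (median −0.78). Birc5, or survivin, went from 13.9, 14.3 and 15.8 CPM to 6.16, 5.95 and 6.23 CPM (−1.26, SE 0.091, adjusted p = 1.46e-05). Borealin (Cdca8) fell by 0.85 and Aurora B kinase (Aurkb) by 0.72. Incenp, the scaffold that binds Aurora B, was the most abundant per length, at 13.8 RPKM with DMSO, and fell least. It measured 59.5, 59.2 and 60.8 CPM with DMSO and 38.8, 37.6 and 37.7 CPM with the inhibitor, a small but very even fall (−0.65, SE 0.048, adjusted p = 1.59e-05).

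The 4 cytokinesis genes fell at least 2-fold each (median −1.19). Anln, or anillin, the scaffold of the contractile ring, went from 56.0, 50.7 and 53.0 CPM to 20.0, 17.2 and 21.0 CPM (−1.46, SE 0.085, adjusted p = 4.75e-06). The microtubule bundler Prc1 fell by 1.23 and Ect2, which activates RhoA at the cleavage furrow, by 1.16. Racgap1, the centralspindlin partner of Kif23, went from 27.5, 26.1 and 26.8 CPM to 13.8, 10.7 and 12.0 CPM (−1.14, SE 0.096).

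The 3 genes of anaphase promotion held both the largest fall and the highest fold change of the 55. Ube2c, the ubiquitin-conjugating enzyme of the anaphase-promoting complex, measured 25.5, 25.9 and 25.7 CPM with DMSO and 9.48, 7.83 and 10.3 CPM with the inhibitor (−1.48, SE 0.10, adjusted p = 1.18e-05). Cdc20, which activates that complex, went from 30.8, 32.1 and 28.7 CPM to 12.7, 7.75 and 12.9 CPM (−1.46, SE 0.17), and its exons overlap those of Elovl1 (−0.10, not passed). Pttg1 encodes securin, the inhibitor of separase that the complex destroys at anaphase. It measured 10.7, 12.6 and 11.3 CPM with DMSO and 11.4, 13.7 and 14.3 CPM with the inhibitor, so the groups overlapped and the difference did not pass (0.18, SE 0.11, adjusted p = 0.199). With library totals alone, which raise the median of all genes from 0.01 to 0.12, it was called higher (0.30, adjusted p = 0.0488, range over the alternatives 0.0488 to 0.458). Separase itself (Espl1), outside the 55, fell by 0.48, and Pttg1 had 0.851 to 1.02 counts per Espl1 count with DMSO and 1.28 to 1.72 with the inhibitor.

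Set side by side, the groups' medians ran from −1.46 (anaphase promotion) to −0.78 (passenger complex). The former is the middle value of 3 genes, of which Pttg1 did not fall, and their mean was −0.92. Between these medians lay −1.19 (cytokinesis, mean −1.24), −1.12 (motors and entry genes), −0.91 (condensin) and −0.90 (kinetochore). The groups' ranges overlapped, and no difference between groups was tested. Levels per length spanned 0.633 RPKM (Kif15) to 22.5 RPKM (Mki67) with DMSO, and 52 of 55 genes were at 1 RPKM or more. Across the 55 genes, which are not independent replicates, Spearman's rho between log2 fold change and level with DMSO was −0.18.

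**Figure D4:**
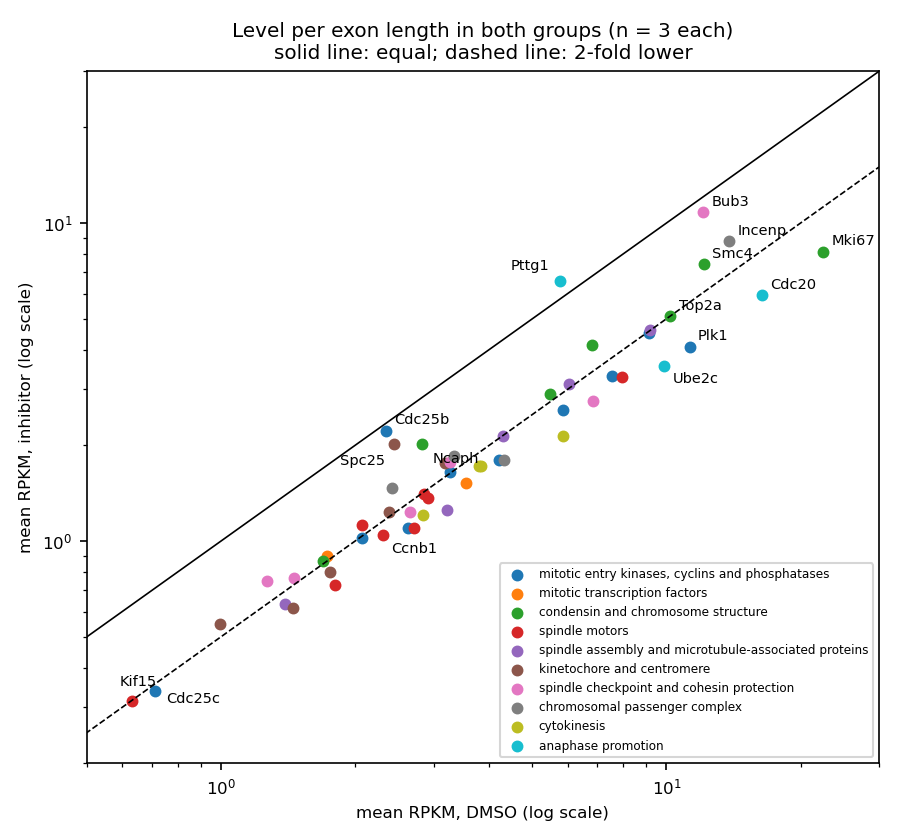
Mean level per kilobase of exon (RPKM, n = 3 libraries a group) with DMSO (x axis) and with the inhibitor (y axis), both on log scales, coloured by role. Most points follow the dashed line of a 2-fold lower level across the whole range, and Pttg1, Cdc25b, Bub3 and Spc25 lie near the solid line of equal levels.

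Other genes of mitosis, grouped in 8 lists that leave out the 55, moved in both directions. Of 107 genes 56 fell and 13 rose (median −0.39), beside 26.5% and 24.9% of all tested genes. With library totals alone 49 fell and 19 rose. Of 20 genes of the spindle, centrosome and abscission 13 fell (median −0.77). They included Depdc1a (−1.44), Troap (−1.32) and Cep55 (−1.23), which acts in abscission, and Arhgap11a (−0.73), a regulator of RhoA, was its most abundant gene that fell. Elsewhere in that list Dlgap5 (−1.16), Tacc3 (−0.99), Spag5 (−0.94) and Ckap2 (−0.66) fell too. Pcnt (−0.19), Numa1 (−0.06) and Ckap5 (0.08) were among those that did not pass. Of 5 further mitotic kinesins 4 fell, with the largest changes in Kif14 (−0.98), Kif18b (−0.63) and Kifc1 (−0.60), and Kif2a (0.19) did not pass. Of 30 further centromere and kinetochore genes 16 fell and 3 rose (median −0.50). The microtubule-binding Ska1 (−1.49), Cenpm (−1.21) and Oip5 (−1.01), which loads CENP-A, fell most, and exons of Oip5 overlap those of Nusap1. Hjurp, the CENP-A chaperone, fell by 0.44, while Zw10 (0.62), Mis12 (0.50) and Zwint (0.22) rose.

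Of 14 genes grouped as cyclin-dependent kinase control at G2, 8 fell and 1 rose (median −0.47), beside 26.5% and 24.9% of all tested genes. Among those that fell were the phosphatase Cdkn3 (−1.70), the CDK subunit Cks1b (−1.18) and the kinase Pbk (−1.10). Wee1 (−0.83) and Pkmyt1 (−0.67), which restrain CDK1, fell too, as did the most abundant called gene of the list, the phosphatase inhibitor Ensa (−0.24), and Gtse1 (0.32) rose. Subunits of the anaphase-promoting complex and its regulators moved both ways, with 8 of 17 lower and 3 higher (median −0.17). Anapc13 (−0.73), Anapc15 (−0.69) and Ube2s (−0.58) fell most, Anapc2 (−0.46) was the most abundant that fell, and Anapc16 (0.48), Anapc7 (0.43) and Cdc27 (0.25) rose. Of 15 genes of cohesin, which acts throughout the cycle, and separase, 5 fell and 6 rose (median 0.01), where 26.5% of all tested genes fell and 24.9% rose. Besides separase, the shugoshin Sgo2a (−0.57) and the cohesin subunits Smc1a (−0.40), Smc3 (−0.31) and Rad21 (−0.30) fell. The subunits Stag2 (0.28) and Stag1 (0.25), the release factor Wapl (0.49), the loader Nipbl (0.41), Pds5a (0.35) and Esco1 (0.32) rose. Of 3 other checkpoint genes Trip13 fell (−0.80), and Mad1l1 (−0.02) and Mad2l1bp (0.12) did not pass.

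Components of DREAM and MuvB, the complexes that switch mitotic genes off or on, and related E2F factors were lower in 4 of 14 cases and higher in 3 (median −0.08), shares near those of all tested genes (26.5% and 24.9%). The repressors E2f8 (−0.99) and E2f7 (−0.90), themselves transcribed in cycling cells, fell, as did Lin9 (−0.47) and Tfdp1 (−0.28). E2f5 (0.63), Rb1 (0.56) and E2f4 (0.40) rose. Among the 7 that did not pass were Rbl2 (0.007) and Rbl1 (−0.07). Members of the same protein families outside mitosis were called in shares that can be read against the same 26.5% lower and 24.9% higher. Of 19 transport kinesins 5 fell and 6 rose (median 0.20), which is near that background. Kif26b (−1.58), Kifc3 (−1.12) and the most abundant of them, Kif1c (−0.15), fell, and Kif5a (0.96), Kif5b (0.38) and Kif3b (0.32) rose. Of 11 cyclins outside mitosis 2 fell and 5 rose (median 0.19). Ccni (−0.69) and Ccny (−0.43) fell, and those that rose included Ccnk (0.65) and the p53 target Ccng1 (0.57).

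**Figure D5:**
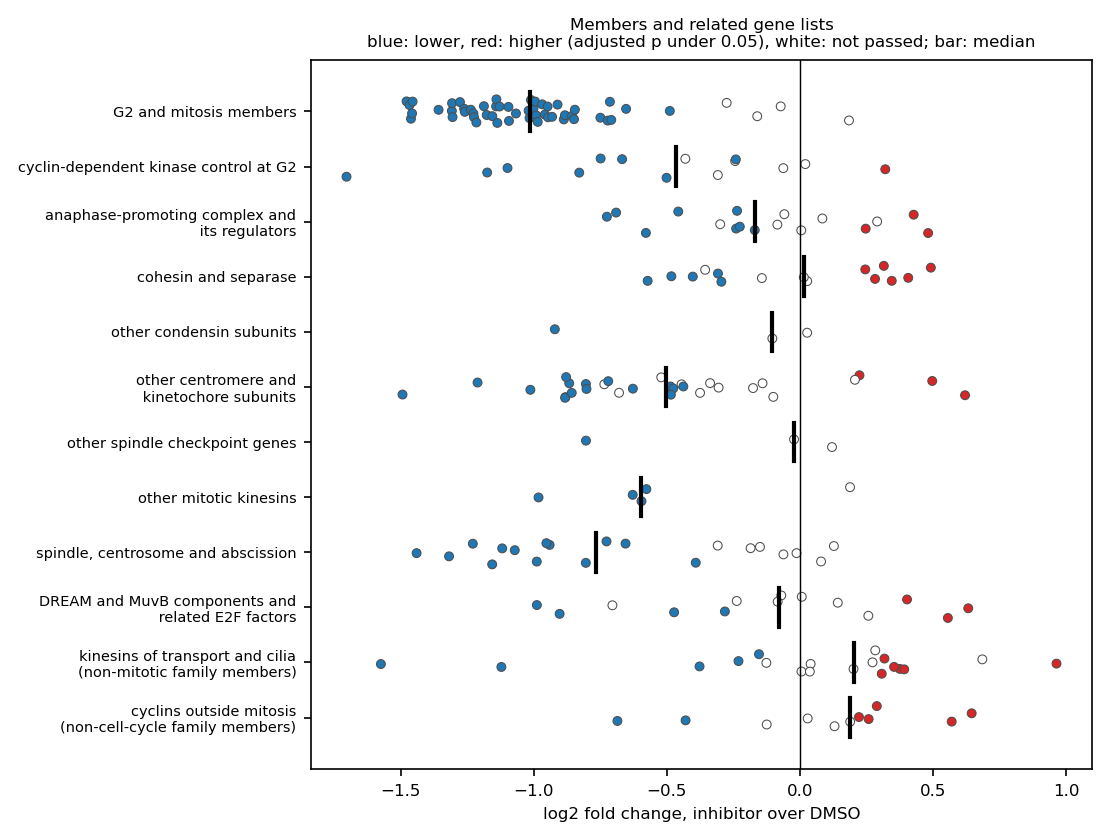
Log2 fold change, inhibitor over DMSO (x axis), of every gene in the 55 and in 11 related lists (y axis). Blue points fell and red points rose at an adjusted p under 0.05, white points did not pass, and the black bar is the median of a list. The bar sits at −1.02 for the 55, at −0.77 to 0.01 for the other mitotic lists and at 0.20 and 0.19 for the non-mitotic kinesins and cyclins.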

How the data were processed

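The deposited values are raw read counts for Ensembl genes, with 1 column for each library. The submitters' processing notes name HISAT2, StringTie 1.3.0, edgeR and the build mm10. What each tool did, how reads were counted, and how strand and multiply mapped reads were handled is not stated, so reads of overlapping genes and close copies cannot be told apart. Groups follow the sample titles. No label says that replicates were separate mice or cultures; p-values therefore describe the spread among these libraries, possibly a technical one. Libraries of the same group differed by more than counting error, with a chi-square of 9.25 to 14.3 per degree of freedom. Each was treated as 1 sample, though these values cannot tell whether libraries shared a culture.

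R 4.3.3 and edgeR 4.0.16 were used for the test (quasi-likelihood, TMM scaling, filterByExpr with a minimum count of 10, pretreatment as the factor). The filter left 13815 genes, including all 55 members. Calls were made where the Benjamini-Hochberg adjusted p, taken over all 13815, was under 0.05. Each SE was derived from the log2 fold change and its F statistic. Symbols came from a table of gene IDs (478 IDs had none), exon lengths, positions and overlaps from GENCODE M21 on the same build, and promoters from RefSeq. The fit was tested on simulated counts. Library totals set the precision: a count of 0 allows up to 3 counts, or 0.12 to 0.163 CPM, for counting error only.

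The members and all lists were chosen with earlier results of these data known. Values in every library are given for the most abundant member per length and the largest and smallest changes of each role group, for Mki67, Top2a, Cdk1 and Ccnb1, and for members that did not pass. Of other lists, the most abundant called gene in each direction and up to 3 with the largest changes are named, and further ones were chosen after their values were seen. Alternatives were median-of-ratios factors, library totals alone, no filter, a 5 CPM minimum for the mean, DESeq2 1.42.0, an adjusted p under 0.01, the replicate number as a block, each library left out, and trends with GC content and exon length removed.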

Additional observations from a re-analysis of the deposited data

How the results depend on the processing

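Across 14 alternatives 51 of the 55 members kept their direction and their call wherever they were tested (13 alternatives for Cdc25c, Ndc80, Sgo1 and Ttk). These 51 are not the 51 that fell, as they include Spc25, which passed in none. The other 4 were Pttg1, Cdc25b, Bub3 and Ttk, whose adjusted p of 0.0128 does not pass at 0.01. The members called lower numbered 47 to 52, the 47 being with a mean of at least 5 CPM, where 51 members were tested. Leaving out 1 library at a time gave 51 to 52, and the median log2 fold change was −1.10 to −0.96. With library totals alone 1 member, Pttg1, was higher, the median of the 55 was −0.91, the log2 fold change of Cdc25b turned to 0.0357, and 4888 genes rose and 2842 fell, against 3446 and 3667. Cdc25b ran from −0.204 to 0.0282 when 1 library was left out, with the highest value without DMSO replicate 1, the library without which Bub3 passed. At an adjusted p under 0.01, 2257 genes rose, which follows from the stricter limit. The replicate block gave 51 lower members and 3510 lower and 3215 higher genes. Deviations of same-numbered libraries from their group means had correlations of −0.034, −0.003 and 0.024. With 3 libraries a group these cannot decide whether equal numbers share a source, and no label says so. Removal of GC and length trends gave 51 lower members. Cdc25c, with 36 to 81 counts a library, was the least deeply covered member.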

Other observations

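The 55 genes held 0.131% to 0.147% of all counts with DMSO and 0.0691% to 0.0779% with the inhibitor. Such shares amount to scaling by library totals alone. Without Mki67 their summed levels were 1171 to 1254 CPM with DMSO and 594 to 668 CPM with the inhibitor. Cyclin B1 and cyclin B2 transcripts kept overlapping ratios, with 0.648 to 0.978 counts of Ccnb1 per Ccnb2 count with DMSO and 0.538 to 0.77 with the inhibitor. The same held for Incenp per Aurkb count, at 7.78 to 8.79 with DMSO and 7.90 to 9.89 with the inhibitor. Ncaph had 0.91 to 1.11 counts per Ncapg count with DMSO and 1.17 to 1.66 with the inhibitor, without overlap. The members lie on 16 chromosomes, with 11 of them on chromosome 2.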
